A study of Homo sapiens with 8 samples.

Results

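The genes described here are 9 genes of the transforming growth factor beta (TGF-beta) pathway and of the urokinase plasminogen activator system. They are the ligand genes TGFB1, TGFB2 and INHBA, the receptor genes TGFBR1 and TGFBR2, the genes of the intracellular mediators SMAD3 and SMAD7, and the protease gene PLAU with its receptor gene PLAUR. They were listed by name and make up 9 of the 20037 protein-coding genes of the gene table. For each of them, every ATAC-seq peak overlapping the gene or the 50 kb on either side of it was taken from each of 8 peak lists. ATAC-seq uses a transposase that cuts and tags accessible DNA, so a peak marks a stretch of open chromatin. Merged over the 8 lists, the peaks around the 9 genes formed 99 regions of the 69131 regions in all.

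The samples were H1975 and HCC44, established human lung cancer cell lines that are both labelled WT in genotype. Each line was exposed for 96 h to DMSO, the solvent, or to ACBI1 at a labelled dose of 1 mM, with 2 replicates in each of the 4 groups. ACBI1 is a degrader of SMARCA2, SMARCA4 and PBRM1, subunits of the SWI/SNF chromatin remodelling complexes, and the title of the series connects SMARCA4 in lung cancer with immunity. The comparison asks how the open regions around these genes differ between ACBI1 and DMSO. Protein and RNA levels, of the degraded subunits or of the 9 genes, were not analysed here. Nothing states that replicates came from separate cultures, so the spread between them may be technical.

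Signalling by TGF-beta starts when a secreted ligand binds TGFBR2, which recruits and phosphorylates TGFBR1. The active receptor phosphorylates SMAD3 and its relative SMAD2, which join SMAD4 and regulate genes in the nucleus, and SMAD7, itself a target gene, inhibits the receptors. INHBA encodes a subunit of activin A, a ligand of the same family that uses other receptors and the same SMADs. PLAU, or urokinase, converts plasminogen to the protease plasmin at the cell surface, where PLAUR holds it. In carcinoma cells these genes are known for their part in epithelial-mesenchymal transition, migration and invasion.

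Promoter sequences are shown for SMAD3 and SMAD7, which have both starts with a peak in every sample and starts without a peak under ACBI1, and for PLAUR, whose upstream sequence holds an AP-1 match. Each is the RefSeq sequence (GRCh38.p14) of the 250 bases before the start, 5′ to 3′ on the strand of the gene. Capitals mark matches to the AP-1 motif TGANTCA and to the GC box GGGCGG, on either strand.
SMAD3 start 1, chr15:67065352-67065601, plus strand: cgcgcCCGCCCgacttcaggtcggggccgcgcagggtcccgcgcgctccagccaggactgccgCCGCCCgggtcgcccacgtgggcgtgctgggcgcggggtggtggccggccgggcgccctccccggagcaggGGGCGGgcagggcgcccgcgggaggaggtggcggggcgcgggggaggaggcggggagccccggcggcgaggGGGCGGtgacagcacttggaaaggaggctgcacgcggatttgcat
SMAD3 start 2, chr15:67098429-67098678, plus strand: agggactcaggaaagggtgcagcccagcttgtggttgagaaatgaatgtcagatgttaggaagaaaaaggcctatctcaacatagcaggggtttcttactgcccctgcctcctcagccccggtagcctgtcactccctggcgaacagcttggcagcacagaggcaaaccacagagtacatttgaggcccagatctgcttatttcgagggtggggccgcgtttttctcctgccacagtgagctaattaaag
SMAD3 start 3, chr15:67125492-67125741, plus strand: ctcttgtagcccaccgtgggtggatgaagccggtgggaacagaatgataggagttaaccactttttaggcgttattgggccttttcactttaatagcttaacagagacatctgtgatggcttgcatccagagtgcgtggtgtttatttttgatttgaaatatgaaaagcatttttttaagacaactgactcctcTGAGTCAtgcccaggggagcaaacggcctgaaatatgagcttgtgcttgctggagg
SMAD7 start 1, chr18:48950966-48951215, minus strand: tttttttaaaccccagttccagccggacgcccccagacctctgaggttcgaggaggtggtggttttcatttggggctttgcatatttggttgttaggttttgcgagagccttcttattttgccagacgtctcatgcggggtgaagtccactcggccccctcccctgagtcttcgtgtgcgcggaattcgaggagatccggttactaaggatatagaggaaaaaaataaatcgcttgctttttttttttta
SMAD7 start 3, chr18:48942808-48943057, minus strand: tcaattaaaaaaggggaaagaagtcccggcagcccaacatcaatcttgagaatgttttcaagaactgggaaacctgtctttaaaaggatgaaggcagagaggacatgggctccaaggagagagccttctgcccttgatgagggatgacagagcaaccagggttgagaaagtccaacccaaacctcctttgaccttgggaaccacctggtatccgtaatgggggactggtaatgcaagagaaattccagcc
PLAUR start 1, chr19:43670170-43670419, minus strand: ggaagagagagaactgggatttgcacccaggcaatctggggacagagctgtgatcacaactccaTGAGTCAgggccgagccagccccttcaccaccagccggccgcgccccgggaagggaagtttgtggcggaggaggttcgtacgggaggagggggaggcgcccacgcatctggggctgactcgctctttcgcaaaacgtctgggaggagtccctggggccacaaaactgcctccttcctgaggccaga

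SMAD3 start 1, with 4 GC boxes in its 250 bases, and SMAD3 start 3, with the AP-1 match 56 bases before the start, had a peak within 1 kb in all 8 samples. SMAD3 start 2, which held neither motif, had a peak in both HCC44 DMSO samples and in none of the others. SMAD7 start 1 had a peak in all 8 samples, and SMAD7 start 3 had one in every sample except both HCC44 ACBI1 samples, and neither sequence held either motif. PLAUR, with its AP-1 match 186 bases before the start, had a peak in all 8 samples. Among 22199 promoter sequences of the same length, 5.36% held the AP-1 motif and 53.7% the GC box, beside 2 and 8 of the 24 starts listed for the 9 genes. The starts are not separate promoters: 8 of the 24 belong to TGFBR1 and lie close together, so that some of their sequences overlap and a match there can be counted more than once. The SMAD box GTCTG was in 37.2% of all promoters and at 11 of the 24 starts, the CCAAT box CCAAT in 32.7% and at 10, and the E box CACCTG in 17.0% and at 6. The TATA box TATAAA was in 9.0% of promoters and at 3 of the starts, at TGFB2, INHBA and SMAD7, and the SMAD palindrome GTCTAGAC was in 0.207% and at none of them. Both strands were searched, and none of these motifs contains another. A match is a description of the letters and not of a bound factor.

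The lists carried no read numbers, so depth is unknown. The DMSO lists held from 41027 to 50347 peaks and the ACBI1 lists from 22133 to 27682, and a peak that is missing from a list is not a measurement of closed chromatin. The share of a list lying around the 9 genes was 0.172% and 0.173% with DMSO against 0.166% and 0.176% with ACBI1 in H1975. In HCC44 it was 0.163% and 0.164% with DMSO against 0.137% and 0.149% with ACBI1. All 5 epithelial markers checked (EPCAM, KRT8, KRT18, KRT19 and CDH1) had a promoter peak in 7 of the 8 samples, and 1 HCC44 ACBI1 sample lacked the CDH1 peak. Of the 4 lung lineage markers, 2 or 3 had a promoter peak in each sample, of the 4 blood markers 1 or 2, of the 4 fibroblast markers 1 to 3, and of the 3 endothelial markers 0 or 1. PTPRC, which encodes the blood cell antigen CD45, had no promoter peak in any sample, SPI1, a transcription factor gene of myeloid and B cells, had one in all 8, and CD3E, a gene of the T cell receptor complex, had one in 3 of the 4 DMSO samples and in no ACBI1 sample.

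Around 8 of the 9 genes, both ACBI1 samples had fewer listed peaks than both DMSO samples, in H1975 and in HCC44 alike, and INHBA was the exception in each line. No gene had more. The 9 windows together held 75 and 71 peaks with DMSO against 46 and 39 with ACBI1 in H1975. In HCC44 they held 82 and 82 with DMSO against 36 and 37 with ACBI1. The same order was met by 49.5% of all genes with a peak nearby in H1975 and by 62.4% in HCC44. Among genes with at least 5 peaks in the DMSO mean it was met by 63.2% and 76.6%. The median of the 9 genes kept 61.1% of its DMSO peak number in H1975 and 33.3% in HCC44, beside 75.0% and 66.7% over all genes with a DMSO peak. Within 1 line the exact permutation test has 6 arrangements and cannot give a p below 0.333, and over both lines it has 36 and cannot give a p below 0.0556. The 8 genes reached that smallest p of 0.0556 (exact permutation test, two-sided, n = 2 a group in each line), so the sizes are given beside the SD between replicates.

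These counts depend on the length of the lists. When every list was reduced to its 22133 peaks of highest −log10 q, the length of the shortest list, only 3 genes had fewer peaks in both H1975 ACBI1 samples (TGFBR2, SMAD3 and PLAU) and 2 had more (TGFB1 and PLAUR). In HCC44, 2 had fewer (TGFBR2 and SMAD7) and 2 had more (SMAD3 and PLAU). In lists of that length, 13.4% of all genes with a peak nearby had fewer and 28.5% had more in H1975. In HCC44, 15.1% had fewer and 36% had more. Of the 9 genes, only TGFBR2 had fewer peaks in both lines both in the full lists and in lists of equal length. How many of all genes did so was not counted. At equal length it had 2 and 2 with DMSO against 1 and 1 with ACBI1 in H1975, and 3 and 3 with DMSO against 2 and 2 with ACBI1 in HCC44. The plot of peak numbers by sample shows both versions side by side.

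**Figure D1:**
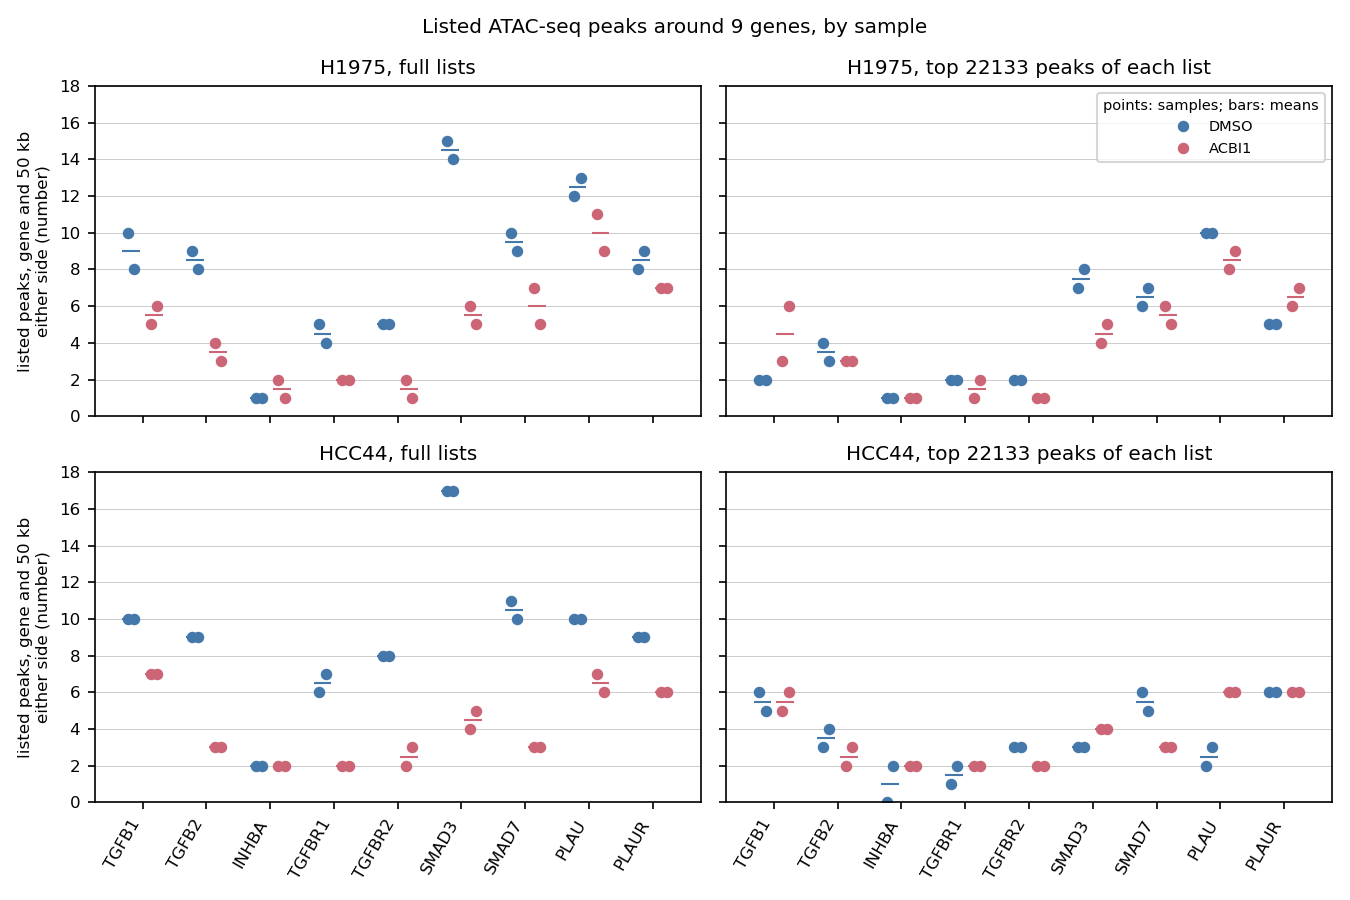
Number of listed peaks in each gene and the 50 kb on either side (vertical axis) for the 9 genes (horizontal axis), with 1 point per sample and a bar at the mean of 2 replicates. In the full lists (left) the ACBI1 points lie below the DMSO points for every gene except INHBA, and in lists reduced to their top 22133 peaks (right) the order turns for SMAD3 and PLAU in HCC44 and for TGFB1 and PLAUR in H1975.

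Among the ligands, TGFB2 was the gene with the larger difference. TGFB2 encodes TGF-beta 2, and its gene lies at chromosome 1, 218345336 to 218444619. Its window of 199.3 kb held 9 and 8 peaks in the H1975 DMSO samples, against 4 and 3 with ACBI1. In HCC44 it held 9 and 9 with DMSO against 3 and 3 with ACBI1. The groups did not overlap in either line. The difference was −5.0 peaks in H1975 (SD between replicates 0.707) and −6.0 in HCC44, where replicates had equal counts. A fall this large or larger was found for 4.81% of genes with a peak nearby in H1975 and 5.95% in HCC44, although longer windows can hold larger differences.

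The promoter peak of TGFB2 was listed in all 8 samples, at 218344944 to 218347397, and ranked between 10.0% and 44.7% from the top of its list by −log10 q. Such a rank gives the place of a peak within its own list, and since the DMSO and ACBI1 lists differ in length, ranks in them are set side by side only to describe and show no change. Distal peaks of TGFB2 numbered 8 and 7 with DMSO against 3 and 2 with ACBI1 in H1975. In HCC44 they numbered 8 and 8 with DMSO against 2 and 2 with ACBI1. A region inside the gene, 32.0 kb from the start (218376938 to 218377725), had ranks of 21.2% and 26.6% in the H1975 DMSO lists and of 57.2% and 74.8% in the ACBI1 lists. In HCC44 the same region ranked 28.3% and 18.8% with DMSO and was in neither ACBI1 list. A region 80.8 kb into the gene (218425796 to 218426480) and one 142.9 kb from the start, beyond the gene end (218487759 to 218488727), had a peak in all 4 DMSO samples and in no ACBI1 sample. Of the distal regions of TGFB2, 1 was in all 8 lists, 115.0 kb from the start (218459891 to 218460744).

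TGFB1, the gene of TGF-beta 1, lies at chromosome 19, 41330323 to 41353922, in a stretch crowded with genes. Its window reaches into 6 other genes (B9D2, BCKDHA, CCDC97, EXOSC5, HNRNPUL1 and TMEM91). It held 10 and 8 peaks with DMSO against 5 and 6 with ACBI1 in H1975, and 10 and 10 with DMSO against 7 and 7 with ACBI1 in HCC44. The difference was −3.5 in H1975 (SD between replicates 1.12) and −3.0 in HCC44, without overlap in either line. Only 1 of its distal regions was in all 4 DMSO lists and in no ACBI1 list. It lies 14.1 kb upstream inside TMEM91 (41367827 to 41368312), with ranks of 73.8% and 80.9% in the H1975 DMSO samples and 23.6% and 39.6% in the HCC44 DMSO samples. Peaks at the promoters of neighbouring genes stayed listed, such as the one at 41363742 to 41364519, where B9D2 and TMEM91 lie, which ranked between 6.38% and 20.4% in all 8 samples. The promoter peak of TGFB1 ranked lower, between 43.2% and 77.4%, in all 8 lists.

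INHBA, at chromosome 7, 41685114 to 41705406, had the fewest peaks of the 9 genes with DMSO and no fewer with ACBI1. It had 1 and 1 with DMSO against 2 and 1 with ACBI1 in H1975, and 2 in each of the 4 HCC44 samples. No sample had a peak within 1 kb of the start that the promoter table lists, at 41703090. A region 2.2 kb upstream of that start (41704859 to 41705785), at the upstream end of the gene in the gene table, was in all 8 lists. Its ranks were 17.5% and 16.4% in the DMSO lists, and 28.6% and 44.2% in the ACBI1 lists in H1975, and 48.7% and 44.0% in the DMSO lists, and 42.2% and 54.1% in the ACBI1 lists in HCC44. The other region, 6.5 kb into the gene (41696252 to 41696880), was listed in all 4 HCC44 samples and, in H1975, in ACBI1 replicate 1 alone.

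Both receptor genes kept their promoter peak and had few distal peaks with ACBI1. TGFBR1, which encodes the type I receptor, lies at chromosome 9, 99103647 to 99154192. It had 5 and 4 peaks with DMSO against 2 and 2 with ACBI1 in H1975, and 6 and 7 with DMSO against 2 and 2 with ACBI1 in HCC44. The groups did not overlap. The difference was −2.5 in H1975 and −4.5 in HCC44, with an SD between replicates of 0.5 in each line. Its promoter peak ranked between 14.1% and 21.5% in all 8 samples. Upstream of it, in COL15A1, the regions 48.4 kb away (99054808 to 99055767) and 46.0 kb away (99057174 to 99058174) were in all 4 DMSO lists and in no ACBI1 list. A region 81.1 kb downstream of the start (99184287 to 99185239) was in all 4 ACBI1 lists, with ranks from 53.7% to 86.0%, and in 3 of the 4 DMSO lists.

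TGFBR2, which encodes the type II receptor that binds the ligand, lies at chromosome 3, 30606356 to 30694142. It had 5 and 5 peaks with DMSO against 2 and 1 with ACBI1 in H1975, and 8 and 8 with DMSO against 2 and 3 with ACBI1 in HCC44. The groups did not overlap in either line. The difference was −3.5 in H1975 and −5.5 in HCC44, with an SD between replicates of 0.5 in each. TGFBR2 kept 30.0% of its DMSO peak number in H1975, and as low a share was found in 4.19% of genes with at least 5 DMSO peaks. In HCC44 it kept 31.2%, a share found in or undercut by 9.74% of such genes.

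In the flanks outside TGFBR2, 2 peaks were listed in every DMSO sample and none in any ACBI1 sample. The region 9.4 kb upstream (30596245 to 30597674) was one of them in both lines, with peaks of 343 and 349 bp in the H1975 DMSO samples and 1430 and 1402 bp in the HCC44 DMSO samples. The second was 27.6 kb upstream in H1975 (30578614 to 30578943) and 114.9 kb downstream of the start in HCC44 (30721051 to 30721420), each in its own line only. Inside the gene, the region 20.2 kb from the start (30625985 to 30627032) was in all 4 DMSO lists and in no ACBI1 list. The region 52.6 kb from the start (30658092 to 30659773) ranked 50.2% and 41.8% in the H1975 DMSO samples and 95.8% in the single ACBI1 list that held it. In HCC44 it ranked 42.4% and 26.4% with DMSO, and 94.9% in the single ACBI1 list that held it. A region 87.1 kb from the start (30693191 to 30693753) went the other way and was listed only in the HCC44 ACBI1 samples. The promoter peak of TGFBR2 (30605882 to 30607385) was in all 8 lists. It ranked 10.8% and 9.54% in the DMSO lists, and 22.8% and 32.6% in the ACBI1 lists in H1975, and 15.9% and 24.3% in the DMSO lists, and 29.0% and 32.7% in the ACBI1 lists in HCC44.

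SMAD3, the transcription factor that carries the signal to the nucleus, had the largest difference of the 9 genes in both lines in the full lists. It lies at chromosome 15, 67065602 to 67195169, and its window of 229.6 kb is the longest of the 9. It had 15 and 14 peaks with DMSO against 6 and 5 with ACBI1 in H1975, and 17 and 17 with DMSO against 4 and 5 with ACBI1 in HCC44. The groups lay far apart in each line. The difference was −9.0 in H1975 (SD between replicates 0.707) and −12.5 in HCC44 (SD 0.5). Of genes with a peak nearby, 0.639% and 0.543% had as large a fall or a larger one. By the share kept, which depends less on window length, SMAD3 stood less far out. It kept 37.9% in H1975, a share that 8.02% of genes with at least 5 DMSO peaks matched or undercut, and 26.5% in HCC44, matched or undercut by 6.14%. In lists of equal length SMAD3 had 7 and 8 peaks with DMSO against 4 and 5 with ACBI1 in H1975, but 3 and 3 with DMSO against 4 and 4 with ACBI1 in HCC44. With a fold enrichment of at least 5 required, its difference in HCC44 was −1.0, smaller than those of SMAD7 and PLAUR, at −4.0 each.

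Of 9 distal regions of SMAD3 that were in all 4 DMSO lists, 4 were in no ACBI1 list and 2 were in every one. The 4 lay 37.6 kb upstream (67027799 to 67028178), 16.1 kb upstream (67048832 to 67050180), 10.9 kb into the gene (67076162 to 67076749) and 112.9 kb into the gene (67178071 to 67178895). The region 16.1 kb upstream was broad, with peaks of 1349 and 1242 bp in the H1975 DMSO samples and 1223 and 1211 bp in the HCC44 DMSO samples. Both retained regions lie inside the gene. The region 41.0 kb from the start (67105397 to 67107906) ranked 14.3% and 28.4% in the DMSO lists, and 42.5% and 61.8% in the ACBI1 lists in H1975. In HCC44 it ranked 15.9% and 40.3% in the DMSO lists, and 45.2% and 58.3% in the ACBI1 lists. The region 84.6 kb from the start (67149611 to 67150781) ranked 15.0% and 28.2% in the DMSO lists, and 45.6% and 77.1% in the ACBI1 lists in H1975, and 25.4% and 32.1% in the DMSO lists, and 57.6% and 78.7% in the ACBI1 lists in HCC44. Outside the gene, SMAD3 had 5 and 5 flanking peaks with DMSO against 1 and 0 with ACBI1 in H1975, and 5 and 6 with DMSO against 0 and 0 with ACBI1 in HCC44.

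The start regions of SMAD3 differed from each other. The region at start 1 (67064082 to 67066732) was in all 8 lists, with ranks from 40.4% to 72.4%. The region at start 3, 61.0 kb into the gene (67124996 to 67128266), was in all 8 lists too. The peak at the start itself was 2827 and 2704 bp wide with DMSO against 2821 and 566 bp with ACBI1 in H1975, and 2937 and 770 bp with DMSO against 859 and 972 bp with ACBI1 in HCC44. The region at start 2, 33.2 kb into the gene (67098434 to 67099091), was weak where it was listed, with ranks of 92.2% and 98.4% in the HCC44 DMSO samples.

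SMAD7, the inhibitory SMAD, lies at chromosome 18, 48919853 to 48950965, with no other protein-coding gene in its window. It had 10 and 9 peaks with DMSO against 7 and 5 with ACBI1 in H1975, and 11 and 10 with DMSO against 3 and 3 with ACBI1 in HCC44. The groups did not overlap in either line. The difference was −3.5 in H1975 (SD between replicates 1.12) and −7.5 in HCC44 (SD 0.5), and SMAD7 kept 63.2% and 28.6%. This was the widest gap between the lines among the 9 genes, −4.0 peaks for HCC44 against H1975, and it did not pass the exact permutation test of the difference (two-sided, 36 arrangements, p = 0.444).

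Distal regions lay on both sides of SMAD7. Downstream of the gene, the regions 48.7 kb (48901898 to 48902663) and 54.0 kb (48896607 to 48897227) from the start were in all 4 DMSO lists and in no ACBI1 list, as was the region 10.0 kb upstream (48960052 to 48961823). The region 40.3 kb upstream (48990468 to 48991970) ranked 36.9% and 33.9% in the DMSO lists, and 79.9% and 95.8% in the ACBI1 lists in H1975. In HCC44 it ranked 40.1% and 38.0% with DMSO and was in neither ACBI1 list. The regions 25.0 kb (48975365 to 48976505) and 47.0 kb (48997095 to 48998754) upstream were in all 8 lists. The latter ranked 12.9% and 11.2% in the DMSO lists, and 22.9% and 36% in the ACBI1 lists in H1975, and 24.6% and 28.7% in the DMSO lists, and 48.5% and 69.7% in the ACBI1 lists in HCC44.

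At SMAD7 start 3, inside the gene, the region 48942604 to 48943158 ranked 25.1% and 25.1% in the DMSO lists, and 41.4% and 55.1% in the ACBI1 lists in H1975. In HCC44 it ranked 18.5% and 29.0% with DMSO and was in neither ACBI1 list. The peak nearest start 1 (48951525 to 48953012) was in all 8 lists, with ranks from 22.9% to 56.7%. A second peak between starts 1 and 2 (48949715 to 48950144) was in HCC44 DMSO replicate 1 alone.

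**Figure D2:**
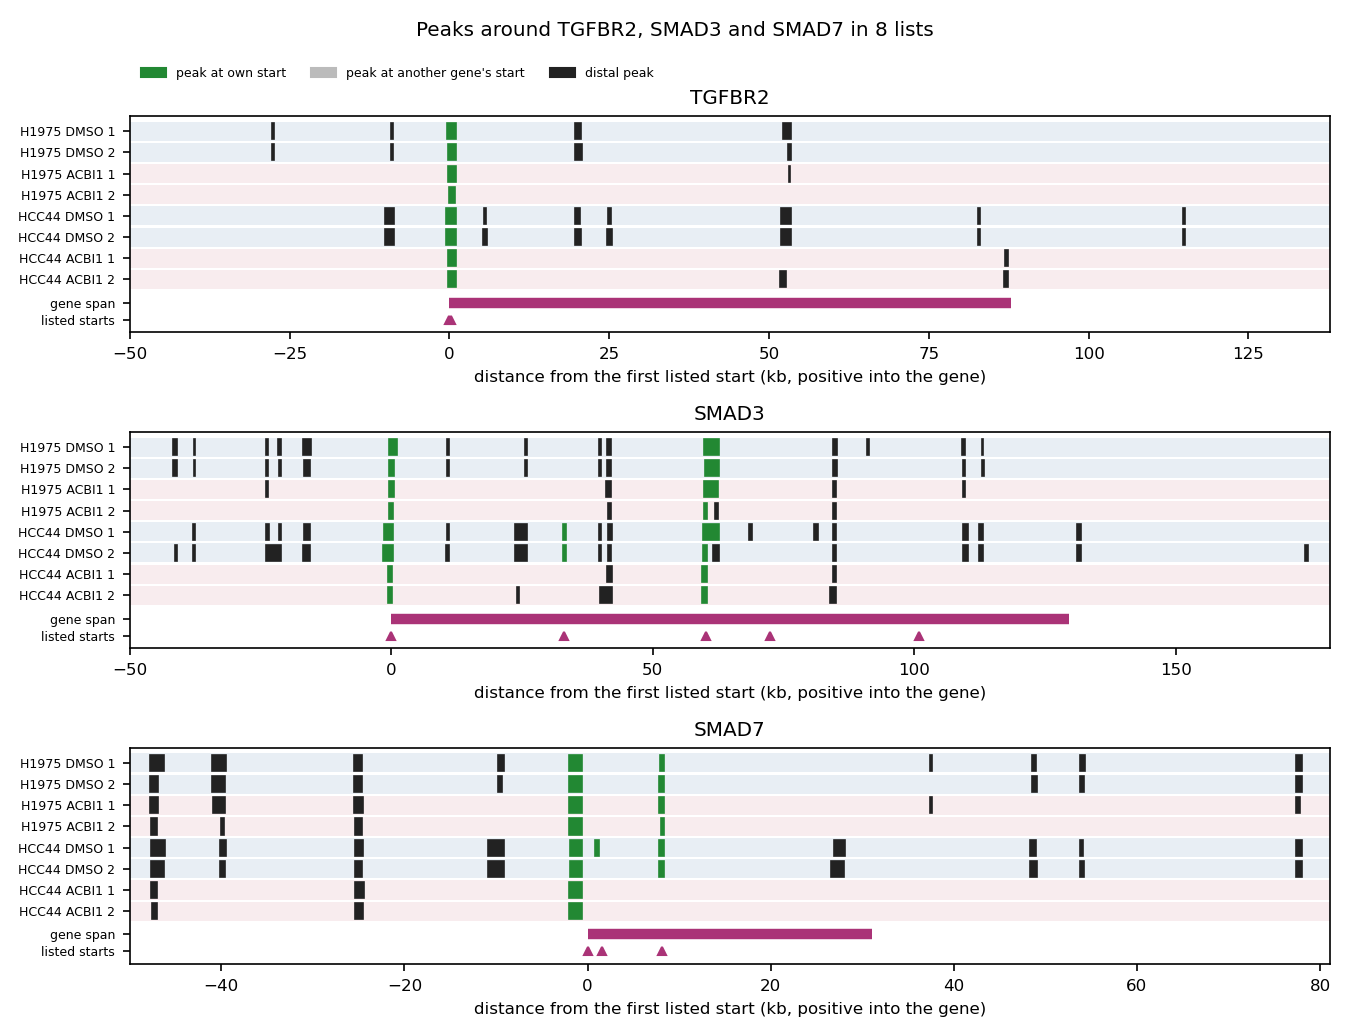
Listed peaks along TGFBR2, SMAD3 and SMAD7 in each of the 8 samples (rows), by distance from start 1 in kb, with the gene and its listed starts drawn below. Green peaks at the genes' own starts persist in the ACBI1 rows, apart from SMAD3 start 2, SMAD7 start 3 and a narrow peak near SMAD7 start 1 in HCC44, while many black distal peaks of the DMSO rows have no counterpart there.

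The genes of the plasminogen activator system kept a larger share of their peak number than the receptor genes in each line. The shares were 65.0% to 82.4% against 30.0% to 44.4%. A larger share was not particular to PLAU and PLAUR. TGFB1 kept 61.1% in H1975 and 70.0% in HCC44, the latter more than either gene, and INHBA had no fewer peaks. All these shares include promoter peaks of neighbouring genes. Such peaks numbered 2 or 3 a sample for PLAUR, 1 for PLAU and 0 for both receptor genes. The order was the same for distal peaks alone. Distal peaks of PLAUR numbered 5 and 5 with DMSO against 3 and 2 with ACBI1 in H1975. In HCC44 they numbered 5 and 6 with DMSO against 3 and 3 with ACBI1. PLAU kept 71.4% of its distal peaks in H1975 and 56.2% in HCC44, and the receptor genes 12.5% to 28.6%. PLAU, which encodes urokinase, is a short gene at chromosome 10, 73908832 to 73917494, and most of its peaks lie outside it. It had 12 and 13 peaks with DMSO against 11 and 9 with ACBI1 in H1975, and 10 and 10 with DMSO against 7 and 6 with ACBI1 in HCC44. The groups did not overlap, but in H1975 they were 1 peak apart at the nearest. The difference was −2.5 in H1975 (SD between replicates 1.12) and −3.5 in HCC44 (SD 0.5). PLAU kept 80% in H1975 and 65.0% in HCC44, shares that 60.9% and 50.2% of genes with at least 5 DMSO peaks matched or undercut. In lists of equal length PLAU had 10 and 10 peaks with DMSO against 8 and 9 with ACBI1 in H1975, and 2 and 3 with DMSO against 6 and 6 with ACBI1 in HCC44.

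None of the 6 distal PLAU regions that were in all 4 DMSO lists was absent from all 4 ACBI1 lists. The regions 22.8 kb upstream (73886174 to 73889382), 30.5 kb downstream (73940540 to 73941618) and 55.4 kb downstream (73965440 to 73966622) were in all 8 lists, and the other 3 were absent from both ACBI1 lists in HCC44 only. The region 30.5 kb downstream had authors' fold enrichments between 5.80 and 8.67 over the 8 lists. At its own start, a promoter region (73908291 to 73911596) was in all 8 lists, and its best-ranked peak ranked from 25.2% to 78.9%. In H1975 it held 2 separate parts. The part 1.4 kb upstream of start 1 (73908808 to 73909706) ranked 25.2% and 42.5% with DMSO, and 41.5% and 74.1% with ACBI1. The part at the starts themselves (73910625 to 73911596) ranked 88.9% and 79.6% with DMSO, and 81.7% and 76.6% with ACBI1. The region 3.7 kb upstream (73906528 to 73907293) ranked 20.2% and 18.5% in the DMSO lists, and 74.3% and 81.5% in the ACBI1 lists in H1975. In HCC44 it ranked 75.7% and 78.3% with DMSO and was in neither ACBI1 list. The region 21.9 kb downstream (73932126 to 73932930) ranked 23.4% and 27.4% in the H1975 DMSO samples and 65.8% in the single ACBI1 list that held it. It ranked 50.9% and 46.9% in the HCC44 DMSO samples and was in neither ACBI1 list.

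PLAUR, which encodes the urokinase receptor, lies at chromosome 19, 43646095 to 43670169, and its window reaches into 6 other genes (CADM4, IRGC, IRGQ, SRRM5, ZNF428 and ZNF576). It had 8 and 9 peaks with DMSO against 7 and 7 with ACBI1 in H1975, and 9 and 9 with DMSO against 6 and 6 with ACBI1 in HCC44. The difference was −1.5 in H1975 (SD between replicates 0.5) and −3.0 in HCC44. Of genes with a peak nearby, 42.6% and 27.6% matched or exceeded these falls. The groups did not overlap in either line, and PLAUR kept 82.4% and 66.7% of all its peaks, promoter peaks of neighbouring genes included. Of genes with at least 5 DMSO peaks, 63.5% and 54.0% matched or undercut these shares. Its broad promoter peak (43668307 to 43670460) ranked between 11.7% and 27.7% in all 8 samples. A region 17.1 kb upstream (43686788 to 43687828) was in all 4 DMSO lists and in no ACBI1 list, and its DMSO peaks were 791 to 961 bp wide. The region 30.9 kb upstream (43700485 to 43701697) was in all 8 lists, and its ranks in HCC44 were 3.21% and 5.59% in the DMSO lists, and 79.9% and 85.7% in the ACBI1 lists. In H1975 it ranked 27.8% and 43.7% in the DMSO lists, and 61.7% and 66.2% in the ACBI1 lists. Inside the gene, a region 7.4 kb from the start (43662635 to 43662954) was listed only in the HCC44 ACBI1 samples.

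**Figure D3:**
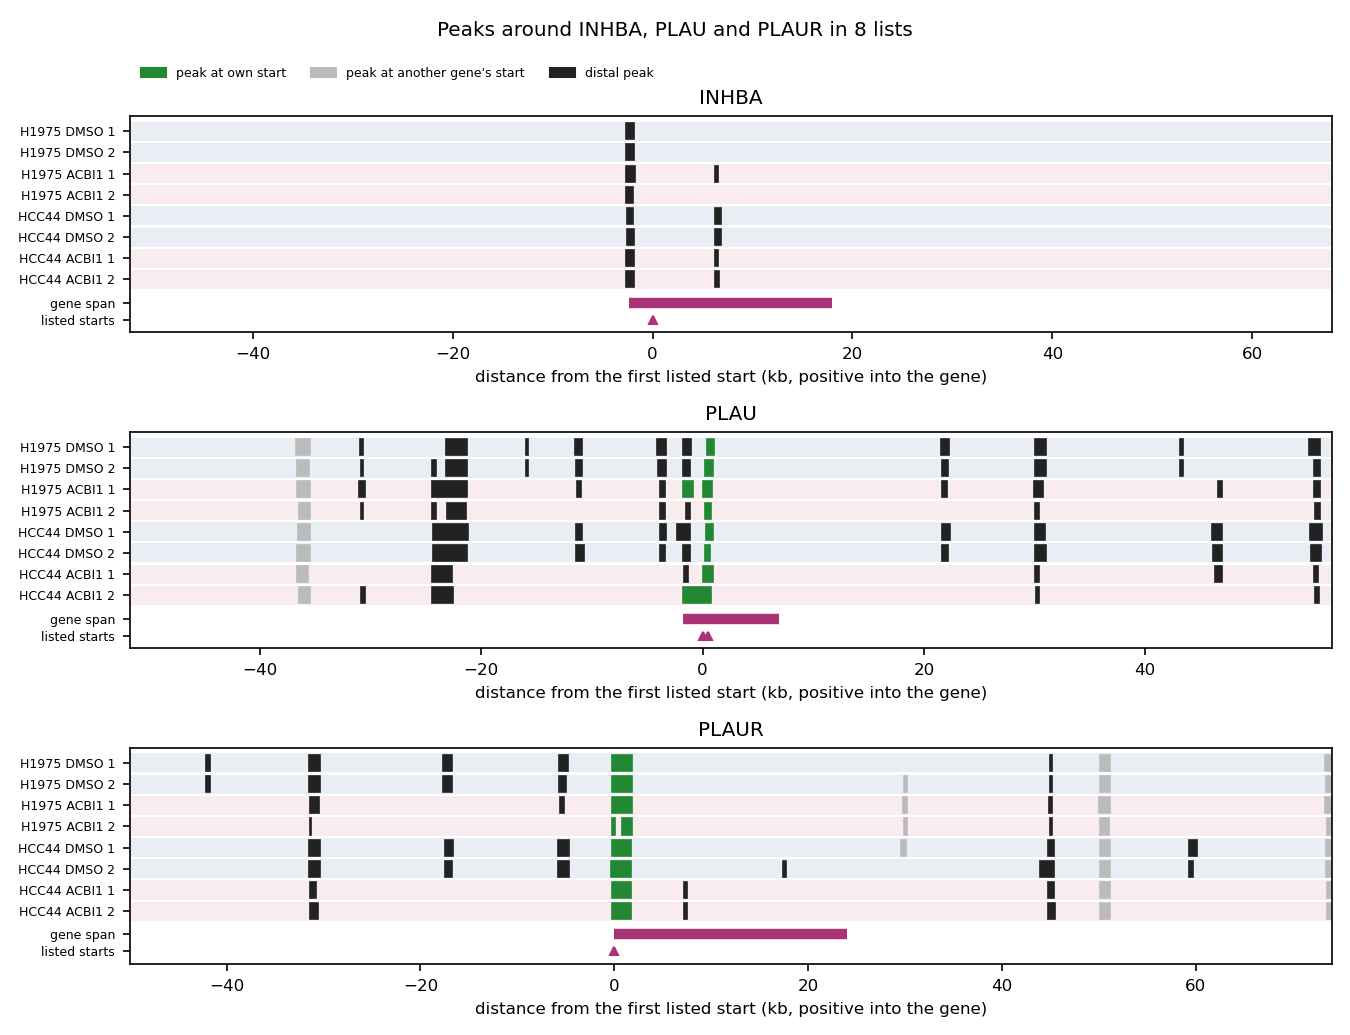
Listed peaks along INHBA, PLAU and PLAUR in each of the 8 samples (rows), by distance from start 1 in kb, with the gene and its listed starts drawn below. The INHBA peak 2.2 kb upstream and the PLAU peaks 22.8 kb upstream, 30.5 kb and 55.4 kb downstream run through all 8 rows, while the PLAUR peak 17.1 kb upstream is in the 4 DMSO rows only.

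Promoter peaks stayed listed more often than distal peaks in both lines. A peak within 1 kb of an own start was in both DMSO samples for 8 of the 9 genes, INHBA being the exception, and all 8 kept one in both ACBI1 samples, in H1975 and in HCC44. Over all genes with such a peak, 95.9% of 12013 kept it in H1975 and 92.9% of 12213 in HCC44, so the share of the 8 genes was near the background. Stricter lists had fewer such peaks to begin with. In lists of equal length 6 genes had one in both H1975 DMSO samples and 5 in both HCC44 DMSO samples, and all of these kept it. With a fold enrichment of at least 5 required, 5 genes had one in H1975 and 5 of 5 kept it, and in HCC44 no gene had one in both DMSO samples. With a promoter window of 5 kb, all 9 genes, INHBA included, had a promoter peak in both DMSO samples and kept it, in each line. Distal peaks around the 9 genes numbered 59 and 54 with DMSO against 28 and 20 with ACBI1 in H1975, and 62 and 64 with DMSO against 20 and 21 with ACBI1 in HCC44. Peaks at the genes' own starts numbered 10 and 10 with DMSO against 11 and 12 with ACBI1 in H1975. In HCC44 they numbered 12 and 11 with DMSO against 9 and 9 with ACBI1. The higher numbers in H1975 came from TGFB1 and PLAUR in ACBI1 replicate 2 and from PLAU in ACBI1 replicate 1. Each had 2 such peaks there against 1 in each DMSO sample. These peaks lay in regions that both DMSO lists also held. In H1975, 0 promoter regions in these windows had a peak in both ACBI1 samples only, so the higher numbers are not newly listed starts.

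Regions were then built in each line by merging peaks that overlapped by at least 1 bp, and a region that both DMSO lists held and neither ACBI1 list held was counted as lost from the lists. Around the 9 genes, 27 of 51 distal regions were lost in H1975, or 52.9% (exact Clopper-Pearson 95% interval 38.5% to 67.1%), and 37 of 56 in HCC44, or 66.1% (52.2% to 78.2%). Over the genome, 51.3% of distal regions were lost in H1975 and 63.9% in HCC44, so the shares around these genes were near the background. The intervals cover counting error only, and neighbouring regions are not independent. Of promoter regions in these windows, those of neighbouring genes included, 0 of 17 were lost in H1975, where the genome share was 3.36%. In HCC44, 2 of 18 were lost, at SMAD3 start 2 and SMAD7 start 3, where the genome share was 6.57%. Distal regions with a peak in both ACBI1 samples only numbered 0 in H1975 and 2 in HCC44, the ones at TGFBR2 and PLAUR named above.

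**Figure D4:**
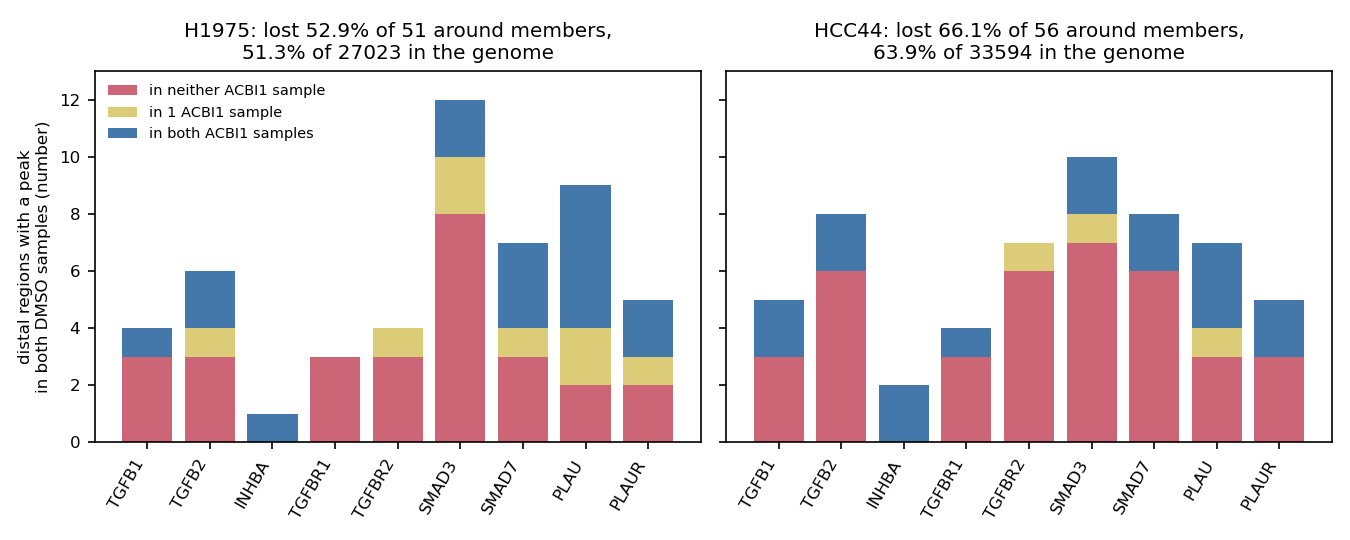
Distal regions held by both DMSO lists (vertical axis, number) around each gene, split by whether neither, 1 or both ACBI1 samples had a peak, in H1975 (left) and HCC44 (right). SMAD3 has the tallest bars, with 12 and 10 regions of which 8 and 7 had no ACBI1 peak, and in PLAU 2 of 9 and 3 of 7 had none.

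The distal regions of the 9 genes did not all fare alike. For TGFB1, TGFBR1 and TGFBR2, no distal region that was in all 4 DMSO lists was in all 8 lists, and 1 of 2, 2 of 2 and 2 of 3 were in no ACBI1 list. For PLAU, 0 of 6 were in no ACBI1 list and 3 of 6 were in all 8. The 1 region of INHBA that was in all 4 DMSO lists was in all 8. It counts as distal by the listed start but lies at the upstream end of the gene in the gene table. TGFB2 had 2 of 5 in no ACBI1 list and 1 of 5 in all 8, SMAD3 had 4 of 9 and 2 of 9, SMAD7 had 3 of 7 and 2 of 7, and PLAUR had 1 of 4 and 2 of 4. Taking the 9 genes together, 39 distal regions were in all 4 DMSO lists and 15 of them were in no ACBI1 list, while 38.5% of such regions were over the genome. Another 11 of the 39 were in all 8 lists, beside 28.5% over the genome. Of the 39, 10 were lost in HCC44 but not in H1975 and 2 in H1975 but not in HCC44, beside 18.6% and 4.59% over the genome. Regions held by both DMSO samples of 1 line and by no DMSO sample of the other numbered 8 in H1975, of which 6 were lost, and 14 in HCC44, of which 11 were lost, 4 of them around TGFBR2. Over the genome 70.1% and 73.5% of such regions were lost, so these counts were near the background too.

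By the median, lost distal regions ranked lower in the DMSO lists than retained ones, around these genes and elsewhere, and around these genes the ranks overlapped in each line. In H1975, lost distal regions had a median rank of 71.5% in the DMSO lists and a median width of 419 bp, against 31.1% and 941 bp for regions retained in all 4 samples. In HCC44 the values were 55.7% and 727 bp for lost regions against 45.0% and 1080.5 bp for retained ones. The widths are of merged regions, which join DMSO and ACBI1 peaks where retained and DMSO peaks only where lost. The gap in width is therefore partly built in by the definition, and widths of DMSO peaks alone were not compared. Over the genome, the median ranks of lost and retained distal regions were 64.4% and 35.6% in H1975 and 56.5% and 43.5% in HCC44. Low rank and the shorter ACBI1 lists thus moved with the loss of regions, and their part in it was not tested. Highly ranked regions were lost too. The SMAD7 region 77.7 kb from the start, downstream of the gene (48872891 to 48873607), ranked 27.7% and 20.5% in the HCC44 DMSO samples and was in neither ACBI1 list.

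**Figure D5:**
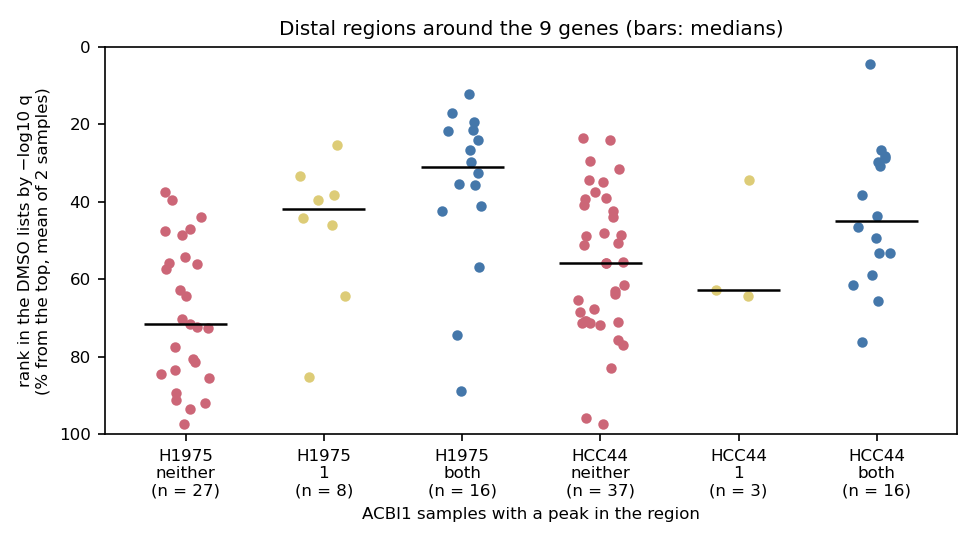
Rank of each distal region around the 9 genes in the DMSO lists by −log10 q (vertical axis, percent from the top, mean of 2 samples, top ranks uppermost), grouped by line and by the number of ACBI1 samples with a peak, with bars at the medians. The H1975 regions found in both ACBI1 samples sit higher (median 31.1%) than those found in neither (71.5%), and in HCC44 the groups overlap more (45.0% and 55.7%).

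The difference between ACBI1 and DMSO was larger in HCC44 than in H1975 for 7 of the 9 genes by the means. The fall was larger in HCC44 for 52.2% of all genes with a peak nearby and for 58.7% of those with at least 5 DMSO peaks in the mean of both lines. No difference between the lines passed the exact permutation test (two-sided, 36 arrangements). For SMAD3 it was −3.5 peaks (p = 0.556, exact), for TGFBR1 and TGFBR2 −2.0 (p = 0.556, exact, each), and for PLAUR −1.5 (p = 0.556, exact). For TGFB2 and PLAU it was −1.0 (p = 0.778 and 0.889, exact). TGFB1 went the other way, at 0.5 (p = 1.00, exact). INHBA, with a higher count in 1 H1975 ACBI1 sample only, gave −0.5 (p = 1.00, exact). The direction turned in lists of equal length for TGFB1, INHBA, TGFBR1, SMAD3 and PLAU, to −2.5, 1.0, 1.0, 4.0 and 5.0. With a fold enrichment of at least 5 it turned for TGFB2, TGFBR2, SMAD3 and PLAU, to 1.0, 1.0, 6.0 and 0.5. With DMSO, HCC44 had more peaks than H1975 around TGFBR2, SMAD3 and TGFBR1, by 3.0, 2.5 and 2.0 in the means, and fewer around PLAU (−2.5). The HCC44 DMSO lists were also the longer ones. In lists of equal length the DMSO samples had 7 and 8 peaks around SMAD3 in H1975 against 3 and 3 in HCC44, 2 and 2 around TGFBR1 against 1 and 2, and 2 and 2 around TGFBR2 against 3 and 3.

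Other genes of the pathway were taken from a list of 63, of which 62 had a peak nearby. In H1975, 38 of the 62 (61.3%) had fewer peaks by the same order of samples and none had more, and in HCC44 51 (82.3%) had fewer and 2 had more. These are shares to read beside the 49.5% and 62.4% of all genes with a peak nearby. The 2 were BMP2 and ACVR1C, named here after their values were seen. Of those with at least 5 DMSO peaks, 22 of 34 had fewer in H1975 and 40 of 41 in HCC44, beside 63.2% and 76.6% of all such genes. By role, fewer peaks were found in H1975 and HCC44 for 11 and 17 of 21 ligand and ligand release genes, 6 and 7 of 11 receptor genes, 11 and 14 of 16 SMAD and regulator genes, and 10 and 13 of 14 target and plasminogen genes. A promoter peak in both DMSO samples was kept in both ACBI1 samples by 40 of 45 genes in H1975 and 46 of 52 in HCC44, lower shares than the 95.9% and 92.9% of all genes, and this difference was not tested.

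TGFB3, another TGF-beta ligand, had 2 peaks in each of the 8 samples, and SMAD4, the shared partner of the receptor SMADs, had 2 in 7 samples and 3 in 1. SMAD2 had 3 and 3 peaks with DMSO against 2 and 1 with ACBI1 in H1975, and 7 and 7 with DMSO against 3 and 2 with ACBI1 in HCC44. SKIL, which encodes the repressor SnoN, had 6 and 6 with DMSO against 4 and 4 with ACBI1 in H1975, and 5 and 6 with DMSO against 3 and 4 with ACBI1 in HCC44. These genes all kept a promoter peak in the 8 samples.

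Of the plasminogen system, PLAT, the tissue plasminogen activator, had 6 and 7 with DMSO against 4 and 2 with ACBI1 in H1975, and 8 and 7 with DMSO against 4 and 3 with ACBI1 in HCC44. A peak within 1 kb of an end of PLAT, for which gene ends stood in for a start, was in all 4 DMSO samples and in no ACBI1 sample.

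The largest mean difference over both lines among the 63 was at LTBP1, which encodes a protein that binds latent TGF-beta in the matrix, at −10.8 peaks. It had 12 and 14 peaks with DMSO against 4 and 4 with ACBI1 in H1975, and 16 and 17 with DMSO against 4 and 4 with ACBI1 in HCC44, and the mean difference at SMAD3 was −10.8 too. ITGB6, a subunit of an integrin that releases active TGF-beta, followed with 9 and 8 peaks against 3 and 3 in H1975 and 10 and 10 against 1 and 1 in HCC44. BMPR1B and ACVR1, both type I receptors, and SMAD6, the inhibitory relative of SMAD7, came next at −6.25, −5.75 and −5.75. BMPR1B, ACVR1, SMAD6 and LTBP1 kept a promoter peak in all 8 samples, and ITGB6 had none in any of them.

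For the 3 members with at least 10 peaks in the DMSO mean, the protein-coding genes with the most similar peak numbers were looked up by the sum of absolute differences over the 8 samples. NRP1 and PPM1H were nearest to SMAD3, each with a sum of 5, and NRP1 had 13 and 13 peaks with DMSO against 5 and 5 with ACBI1 in H1975 and 16 and 17 against 4 and 5 in HCC44. A4GALT and AKR1B15 were nearest to SMAD7, each with a sum of 4, and DEDD and DIAPH1 were nearest to PLAU, with sums of 3 and 4. All of these values come from the same 8 lists and share their lengths.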

How the data were processed

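ATAC-seq peak lists of 8 samples were used, 1 per sample, in the broadPeak layout without a header. BWA and hg38 are named in the submitters' processing notes, and the peak caller and its filters are not given in the sources used here. The authors' fold enrichment is a deposited ratio per peak. The deposited q-value is a −log10 value, at least 10.0 in every list, and both were used only to rank, filter or describe peaks within a list. The deposited p-value, also −log10, and the score column were not used. No list gives reads, so depth and its precision are unknown.

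Gene positions came from the RefSeq gene table of GRCh38.p14. Starts came from a promoter table that covers 15843 of 20037 protein-coding genes, and both gene ends were used for the other 4194. A peak within 1 kb of a start was a promoter peak, of its own gene or of another, and the rest were distal. Peak numbers per window (50 kb either side) were compared by order of the samples and by exact permutation tests within lines. Ranks are percent from the top of a list by −log10 q, of the best-ranked peak where a region holds several.

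The named genes were all 9 genes, of the list of 63 the genes TGFB3, SMAD2, SMAD4, SKIL and PLAT, a further gene that is not reported here, and the 5 with the largest mean difference, and for each gene with at least 10 DMSO peaks the 2 most similar genes. The genes, lists and rules were chosen with earlier results of these data known. Alternatives were windows of 10 and 100 kb, a −log10 q of 20, a fold enrichment of 5, equal list lengths, joining of peaks up to 1200 bp apart, promoter windows of 5 kb, 50% cover of a region, distal peaks only, a replicate block, leaving out each sample and, added after seeing the data, only start 1 of each gene. Functions were tested on simulated data. Computation used Python 3.11.15, numpy 2.4.6, pandas 2.3.3, scipy 1.17.1 and matplotlib 3.10.9. Exons and introns, and sequences of peaks, were not analysed here.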

Additional observations from a re-analysis of the deposited data

How the results depend on the processing

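With lists of equal length, fewer peaks were found around 3 genes in H1975 and 2 in HCC44, the lost share of distal regions in H1975 was 36%, and 5 genes kept a promoter peak in HCC44, of 5 that had one in both DMSO samples. The differences turned to 2.5 for TGFB1 and 1.5 for PLAUR in H1975, and to 0.5 for TGFBR1, 1.0 for SMAD3 and 3.5 for PLAU in HCC44. Those between the lines turned to −2.5 for TGFB1, 1.0 for INHBA, 1.0 for TGFBR1, 4.0 for SMAD3 and 5.0 for PLAU. With windows of 10 kb, fewer peaks were found around 5 genes in H1975, and PLAUR turned to 0.5 there. With a −log10 q of at least 20, the lost share in HCC44 was 79.2%, and the difference between the lines turned to −1.5 for TGFB1. With a fold enrichment of at least 5, 5 of 5 genes kept a promoter peak in H1975, no gene had one to keep in HCC44 (0 of 0), and TGFB1 turned to 1.0 in HCC44. The differences between the lines then turned to 1.0 for TGFB2, 1.0 for TGFBR2, 6.0 for SMAD3 and 0.5 for PLAU. The cause of these moves was not tested. Shares over all genes or regions were not computed at these settings, except the gene shares with fewer or more peaks at equal length. The other values cannot therefore be set beside the background shares of the main setting. Leaving out 1 sample at a time, the genes with fewer peaks and those with a kept promoter peak stayed at 8 in each line. The lost share ranged from 52.9% to 67.3% in H1975, the highest without ACBI1 replicate 1, and from 67.9% to 69.4% in HCC44. Leaving out a sample also loosens each rule, since only 1 list of that group must then meet it. These values are therefore not like for like with the full counts, such as the lost share of 66.1% in HCC44. Without H1975 DMSO replicate 1 the difference between the lines for TGFB1 turned to −0.5. Apart from samples left out and the block, 93 of 108 differences around a gene in 1 line and 37 of 54 between the lines kept their direction or stayed at 0, and 36 of 44 counts or shares stayed within 1.5 times or within the 95% interval. Sizes moved more: 34 and 17 of those differences kept their sign but changed by over 1.5 times. At a fold enrichment of at least 5 SMAD3 in HCC44 went from −12.5 to −1.0, and at equal length TGFB2 and TGFBR1 in H1975 went to −0.5 each. Replicate numbers are shared by groups, but same-numbered samples correlated weakly in their deviations (r = 0.102 in H1975 and 0.0444 in HCC44, across genes, which are not independent replicates). The labels do not say whether they were handled together and 2 numbers do not settle it, so they were not treated as pairs. With a replicate block the differences are equal by construction, −9.0 for SMAD3 in H1975 for example, and 16 arrangements remain, so the smallest p is 0.125 (exact permutation test). The unknown depth limits every statement on a missing peak.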
